A study of Mus musculus with 2 samples.

Results

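The genes described here are 8 transcription regulators that neurons switch on within minutes of activity and that belong to neither the EGR nor the AP-1 family: Npas4, Nr4a1, Nr4a2, Nr4a3, Klf4, Klf10, Ier2 and Ier5. They were examined for binding of EGR1, itself a zinc finger transcription factor induced by neuronal activity. Chromatin was recovered with an anti-EGR1 antibody and its DNA sequenced (ChIP-seq). This was done on frontal cortices of male C57BL6N/129SvEv F1 hybrid mice at 6 weeks of age, with no genetic change or treatment named in the labels. The series holds 1 list of EGR1 peaks, made from 2 ChIP experiments with the cortices of 4 to 5 mice in each, and 1 library of input DNA, for which no processed file was used here. A peak was tied to a gene when its centre lay in the gene body or within 10 kb of a transcription start site (TSS) of GENCODE release M21. By this rule 15 of the 12014 peaks of the list were tied to 6 of the 8 genes.

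Activity-induced genes fall into early regulators, which are transcribed without new protein synthesis, and the later genes that those regulators act on. Calcium entry at the synapse acts through CREB, SRF and MEF2, which already sit at the early genes, and the induced proteins then bind the promoters and enhancers of other genes, in many cases those of each other. NPAS4 is a basic helix-loop-helix PAS protein that is largely restricted to neurons and is induced by calcium entry, whereas the NR4A proteins are orphan nuclear receptors, KLF4 and KLF10 are zinc finger proteins that bind GC-rich DNA, and IER2 and IER5 are small nuclear proteins of the immediate early response.

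Each peak carries an irreproducible discovery rate (IDR), which is low for a peak that ranked high and alike in both ChIP experiments. The list was limited by the authors to an IDR of 2% or less. There is 1 value per peak for the 2 experiments together and no read count, so a spread between replicates could not be computed and nothing below was tested. The depth per peak is unknown. The cortex is a mixture of cells, and binding in fewer cells cannot be told apart from weaker binding per cell. No expression was measured in this series, so the tissue label was not checked against marker genes. Positions are given on mm10 and counted from 1, and sequences are those of the C57BL/6J reference GRCm38.p6 and not of the hybrid mice.

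EGR1 proteins recognise the 9-base sequences GCGTGGGCG and GCGGGGGCG, one base triplet for each zinc finger. Both forms were searched on both strands of the peaks. They were found 8 times, once in each of 8 of the 15 peaks (53.3%), at Npas4, Nr4a1, Nr4a3, Klf4 and Klf10. The 8 sites are shown because they match these sequences, and contact of EGR1 with them was not measured. Each is given with the site in capitals, 10 bases to each side, and the strand on which the site reads as above.
Npas4, chr19:4990893-4990901, plus strand: gggctgggggGCGGGGGCGgggccggggg
Nr4a1, chr15:101266786-101266794, minus strand: atggagagggGCGGGGGCGccactgacgc
Nr4a3, chr4:48047201-48047209, minus strand: caatcggggaGCGGGGGCGgaggttgggc
Klf4 promoter, chr4:55532661-55532669, plus strand: gcacgtggggGCGGGGGCGagggaggggc
Klf4 intron, chr4:55531310-55531318, minus strand: tgatcgtagcGCGTGGGCGacccggtggc
Klf10 upstream, chr15:38301389-38301397, minus strand: gccgccttggGCGTGGGCGgtgagtgcga
Klf10 middle, chr15:38299968-38299976, plus strand: cccgacgtctGCGGGGGCGccgcggctcc
Klf10 downstream, chr15:38299313-38299321, minus strand: ccccggccgaGCGGGGGCGggggcccgtg
The positions are those of the 9 bases in capitals. The form GCGGGGGCG accounted for 6 sites and GCGTGGGCG for 2, one in Klf4 and one in Klf10. In 4 of the 8 the base after the site was G. The sites lay 7 to 72 bp from the centre of their peak, 6 of them within 50 bp.

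Npas4 and Nr4a1 had 4 EGR1 peaks each, Klf10 had 3, Klf4 had 2, and Nr4a3 and Ier2 had 1 each. Nr4a2 and Ier5 had none. Of the 21951 protein-coding genes, 39.6% had at least 1 peak by the same rule, against 6 of these 8. At least 2 peaks were tied to 4 of the 8, against 13.7% of coding genes, at least 3 to 3 of the 8, against 4.82%, and at least 4 to 2 of the 8, against 1.84%. The 8 genes are shorter than most, with a median length of 7603 bp (1522 to 41295 bp) against 17403 bp for all coding genes. None of the 15 peaks was also tied to another protein-coding gene, whereas 26.1% of the 10089 peaks tied to any coding gene were tied to more than 1. In 7 of the 15 the centre was within 500 bp of a TSS, and in 11 within 2 kb, against 57.8% and 71.0% of those 10089 peaks. A centre within 500 bp of a TSS was found at 4 of the 8 genes, Npas4, Nr4a1, Klf4 and Klf10, and at 25.8% of coding genes.

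**Figure D1:**
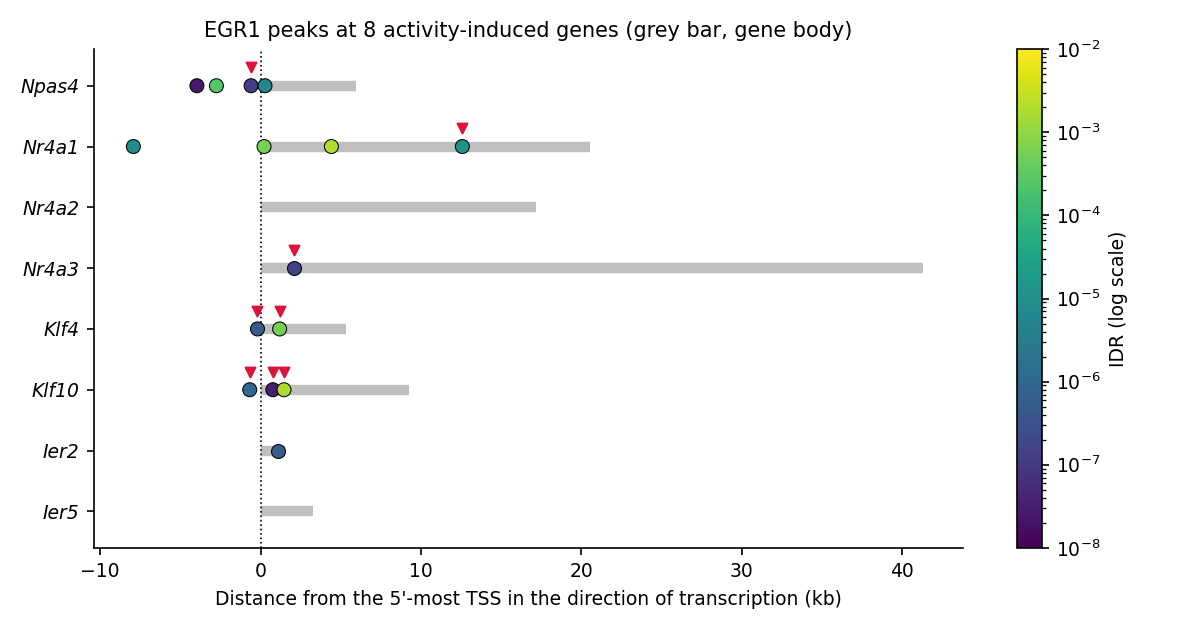
EGR1 peaks at the 8 genes, 1 row per gene: the x axis is the distance in kb from the 5′-most TSS along the direction of transcription, grey bars are gene bodies, dots are peak centres coloured by IDR on a log scale, and red triangles mark peaks with an exact EGR site. Peaks reach from 7928 bp upstream of Nr4a1 to 12576 bp inside it, those of Klf4 and Klf10 lie around the start of the gene, and the rows of Nr4a2 and Ier5 are empty.

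**Figure D2:**
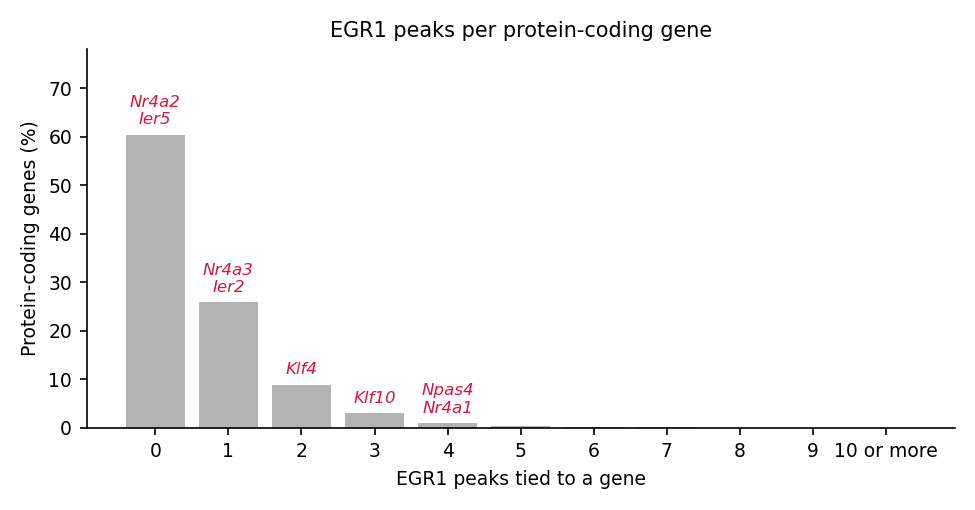
Percent of the 21951 protein-coding genes (y axis) by the number of EGR1 peaks tied to them (x axis), with the 8 genes written above the bar of their own number. Npas4 and Nr4a1 stand above the bar for 4 peaks, and Nr4a2 and Ier5 above the bar for 0, which holds 60.42% of coding genes.

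Npas4, the gene of a transcription factor that shapes the inhibitory synapses of active neurons, had peaks both far upstream and at its start (ENSMUSG00000045903.9, chr19:4984355-4990316, minus strand). The peak with the lowest IDR of all 15, 2.48e-08, was centred 3968 bp upstream of the gene and ranked 165 in the whole list, in its first 1.37%. A peak 592 bp upstream had an IDR of 1.15e-07 (rank 999). The other 2 were a peak 2753 bp upstream with an IDR of 0.00025 (rank 5776) and a peak 70 bp before the start that RefSeq gives to the gene, with an IDR of 6.17e-06 (rank 3490). By GENCODE, which starts Npas4 further upstream, that last centre was 275 bp inside the gene and the whole peak was 5′UTR. The peaks of this gene thus differed widely in IDR, and the lowest belonged to the most distant peak.

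The sequences of the upstream Npas4 peaks differed as well, and 2 of them are given whole, on the strand of the gene. The first is that with the lowest IDR, which held no EGR site, and the second holds the exact site in capitals, here read from its other strand.
Npas4 peak at 3968 bp upstream, chr19:4994200-4994368: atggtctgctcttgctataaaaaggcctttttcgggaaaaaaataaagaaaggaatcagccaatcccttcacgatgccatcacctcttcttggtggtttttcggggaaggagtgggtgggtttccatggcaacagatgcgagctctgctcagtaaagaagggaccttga
Npas4 peak at 592 bp upstream, chr19:4990804-4991011: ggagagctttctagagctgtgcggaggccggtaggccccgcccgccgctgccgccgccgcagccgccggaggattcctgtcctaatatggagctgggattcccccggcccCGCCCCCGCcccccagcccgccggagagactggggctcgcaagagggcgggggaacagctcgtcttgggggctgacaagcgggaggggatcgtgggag
The distant peak had a GC content of 46.7% and 4 CpG dinucleotides, the lowest of the 15 in both. It contained neither an exact EGR site nor one with 1 base changed, and of the motifs searched only TATAAA. The peak 2753 bp upstream also lacked both kinds of EGR site, with a GC content of 56.0%. It held 2 AP-1 motifs, the site of FOS and JUN proteins, and 1 each of TATAAA, the GC box and TGACG. The peaks at 3968 and 2753 bp upstream were the only 2 of the 15 without any EGR site, against 30.2% of all peaks. The peak 592 bp upstream was of the opposite kind, with 72.6% GC, 20 CpGs, 4 GC boxes and the only CArG box among the 15, the sequence bound by SRF, which lay 20 bases from the EGR site. The peak at the RefSeq start held no exact EGR site but 1 site with a change, C8G, with positions counted from 1 at the 5′ end of the site, and 2 short CREs, TGACG, the core of the CREB site.
Npas4 near site, chr19:4990011-4990019, plus strand: ctcctgacagGCGTGGGGGgctcgttttt

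The NR4A genes encode nuclear receptors that act without a known ligand and bind as monomers or as pairs, some of them with RXR proteins. The 3 genes differed from each other: 4 peaks at Nr4a1, 1 at Nr4a3 and none at Nr4a2. Nr4a1 (ENSMUSG00000023034.7, chr15:101254269-101274795, plus strand) has a distal and an internal group of starts. Its peaks were centred 7928 bp upstream of the 5′-most TSS (IDR 8.15e-06), 216 bp downstream of it in an intron (0.000589), 4414 bp downstream of it, also in an intron (0.00198), and 1 bp upstream of the internal TSS, which is also the RefSeq start (1.21e-05). The upstream peak and the peak at the internal start thus had IDRs of the same order, and both intronic peaks had IDRs above the median of the whole list, 0.000321. The peak 4414 bp downstream had the highest IDR of the 15 (rank 8005). The exact EGR site was in the peak at the internal start, whose stretch free of UTR is shown with the site in capitals, read from the other strand.
Nr4a1 peak at the internal start, chr15:101266767-101266845: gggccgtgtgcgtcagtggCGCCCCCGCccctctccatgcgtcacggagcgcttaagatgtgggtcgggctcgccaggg
This peak also held 2 short CREs, the nearer of them 4 bases from the EGR site. A further exact EGR site, 39 bp upstream of the 5′-most TSS, lay outside every peak, 255 bp from the nearest peak centre. The 3 other Nr4a1 peaks held 1, 3 and 2 sites with 1 base changed.

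Nr4a3 (ENSMUSG00000028341.9, chr4:48045153-48086447, plus strand), the longest of the 8 genes at 41295 bp, had a single peak with an IDR of 1.55e-07 (rank 1157). It was centred 2092 bp downstream of the 5′-most TSS and 1869 bp upstream of the TSS of a shorter transcript. It is given whole because it is the only peak of the gene, with the EGR site in capitals.
Nr4a3 peak, chr4:48047170-48047320: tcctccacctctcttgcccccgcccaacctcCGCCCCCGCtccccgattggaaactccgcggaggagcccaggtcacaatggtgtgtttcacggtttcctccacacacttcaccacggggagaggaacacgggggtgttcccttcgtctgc
Of the 3 exact EGR sites in the window of Nr4a3 this was the only one in a peak. The other 2 were 460 and 5163 bp downstream of their nearest TSS.

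Nr4a2 (ENSMUSG00000026826.13, chr2:57106830-57124003, minus strand), which is best known for the upkeep of dopamine neurons and is also induced by activity, had no peak in its body or window. The nearest peak centre was 998375 bp from any of its TSSs. Nr4a2 lay in a stretch of 2209661 bp without any EGR1 peak, bounded by peaks with IDRs of 3.22e-07 and 2.86e-07. That stretch holds 5 protein-coding genes, Nr4a2, Gpd2, Galnt5, Ermn and Cytip. Of all coding genes 4.86% were as far from a peak, counted from their TSSs, as Nr4a2. The window of Nr4a2 contained no exact EGR site either. Its RefSeq promoter held 4 short CREs, as many as those of Nr4a1 and Nr4a3, and the 250 bases before the start are shown with these in capitals.
Nr4a2 promoter, chr2:57124004-57124253, minus strand: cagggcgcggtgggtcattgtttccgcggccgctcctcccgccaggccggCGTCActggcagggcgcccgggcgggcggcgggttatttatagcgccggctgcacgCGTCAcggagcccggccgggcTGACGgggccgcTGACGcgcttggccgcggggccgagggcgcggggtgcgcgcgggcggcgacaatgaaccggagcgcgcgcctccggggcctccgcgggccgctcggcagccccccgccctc
Short CREs were present in the RefSeq promoters (250 bases before to 50 after the start) of 5 of the 6 genes with an entry, Npas4, Nr4a1, Nr4a2, Nr4a3 and Klf4, and in 20.8% of 32851 mouse promoters. The exact EGR site was in those of Klf4 and Nr4a1, against 3.47% of all promoters. GC boxes, the sites of SP and KLF proteins, were in 6 of 6, against 35.7%. The promoters of Klf10 and Ier2 were not used here.

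Klf4 and Klf10 encode Krüppel-like factors, the first known for its role in pluripotency and in limiting axon growth, the second as a target of TGF-beta signalling. All 5 of their peaks held an exact EGR site. At Klf4 (ENSMUSG00000003032.8, chr4:55527143-55532466, minus strand) a promoter peak 192 bp upstream of the 5′-most TSS had an IDR of 5.36e-07 (rank 2298). An intronic peak 1188 bp downstream of that TSS had an IDR of 0.000528 (rank 6469). The promoter peak is given whole with the EGR site in capitals, followed on this strand after 3 bases by the only E-box among the 15 peaks.
Klf4 promoter peak, chr4:55532567-55532748: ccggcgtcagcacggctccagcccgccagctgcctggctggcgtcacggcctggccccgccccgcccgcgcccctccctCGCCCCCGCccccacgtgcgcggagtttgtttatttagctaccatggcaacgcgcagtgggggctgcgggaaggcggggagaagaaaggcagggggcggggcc
It had a GC content of 74.7%, 4 GC boxes and 2 short CREs, whereas the intronic peak had 63.6% GC, 1 GC box and no short CRE.

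At Klf10 (ENSMUSG00000037465.10, chr15:38291463-38300706, minus strand) the 3 peaks followed each other across the start of the gene, at 677 bp upstream, 768 bp downstream and 1461 bp downstream of the 5′-most TSS. The middle peak had an IDR of 3.15e-08, the second lowest of the 15 (rank 224), and lay 143 bp upstream of the TSS of a shorter Klf10 transcript. The upstream peak had an IDR of 8.85e-07 and the downstream one 0.00181 (rank 7883). The first 2 peaks are given whole, on the strand of the gene.
Klf10 upstream peak, chr15:38301326-38301440: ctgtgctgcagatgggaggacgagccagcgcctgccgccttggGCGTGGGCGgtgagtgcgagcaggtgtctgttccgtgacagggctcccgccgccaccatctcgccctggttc
Klf10 middle peak, chr15:38299868-38300008: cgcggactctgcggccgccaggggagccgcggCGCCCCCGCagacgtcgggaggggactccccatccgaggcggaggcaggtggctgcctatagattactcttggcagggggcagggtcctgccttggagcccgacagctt
The downstream peak was the richest in GC (76.9%) and in CpGs (38) of the 15 and held 5 further sites with 1 base changed. The order of the IDRs therefore did not follow the number of EGR-like sites within this gene. Every exact EGR site in the windows of Klf4 and Klf10 (2 and 3) lay in a peak.

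Ier2 and Ier5, which lack introns and encode related nuclear proteins of the early response, differed in that Ier2 had 1 peak and Ier5 none. The Ier2 peak (gene ENSMUSG00000053560.4, chr8:84661331-84662852, minus strand) had an IDR of 5.55e-07 (rank 2339) and ran from 84661613 to 84661876, wholly within the 3′UTR, with its centre 1107 bp downstream of the TSS. The window of Ier2 contained no exact EGR site. The peak held 2 sites with 1 base changed, C2T and C8T, the first of them 3 bases from an AP-1 motif.
Ier2 near site with C2T, chr8:84661632-84661640, plus strand: acagcagcctGTGGGGGCGaggtgactca
Ier2 near site with C8T, chr8:84661706-84661714, minus strand: ctgttgccttGCGTGGGTGtggggcctgg
The AP-1 motif can be read in the last 7 bases of the first of these. Ier5 (ENSMUSG00000056708.5, chr1:155096361-155099636, minus strand) was the reverse case, with an exact EGR site 466 bp downstream of its TSS and no peak. The nearest peak, with an IDR of 0.0172, was centred 15762 bp downstream of its TSS, outside the window, and the nearest coding TSS to it was that of Ier5. At the edge of the window, the most distant peak inside was that 7928 bp upstream of Nr4a1, and the closest outside was 11240 bp from a TSS of Nr4a1, with an IDR of 7.87e-07 and Atg101 as its nearest coding gene.

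Over the 15 peaks the IDR ranged from 2.48e-08 to 0.00198, with a median of 6.17e-06 against 0.000321 for all peaks. Of the 15, 11 lay within 2 kb of a TSS, against 59.7% of all peaks. No median IDR was computed for all peaks near TSSs. An IDR of 0.001 or less was found in 13 of the 15 and in 59.6% of all peaks. The first 10% of the list by IDR held 4 of the 15, of which 2 were at Npas4, 1 at Klf10 and 1 at Nr4a3. At Nr4a1, by contrast, the best rank of a peak was 3656. Every gene with a peak had at least 1 with an IDR of 0.001 or less.

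**Figure D3:**
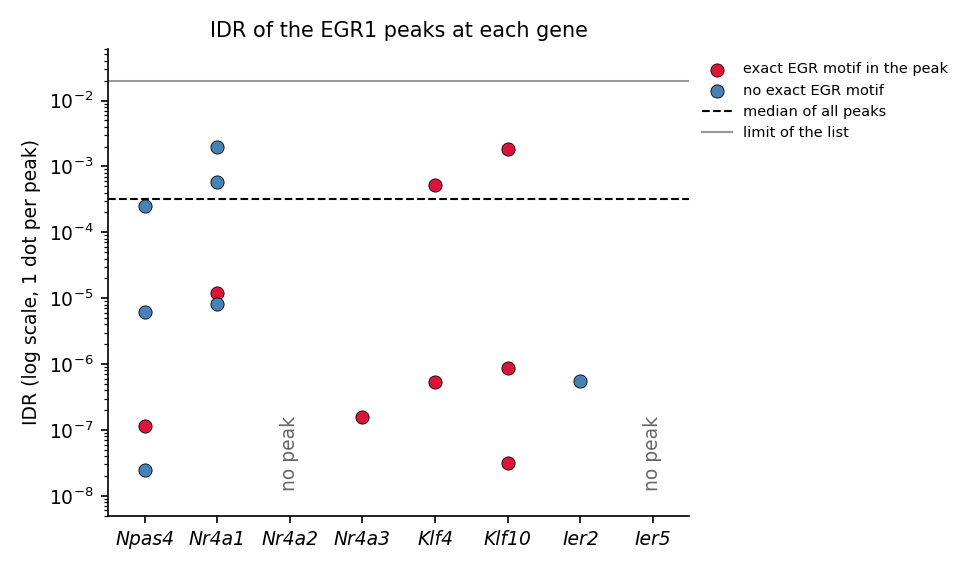
IDR of each EGR1 peak on a log axis (y) for the 8 genes (x), 1 dot per peak, red with and blue without an exact EGR site; the dashed line is the median of all peaks (0.000321) and the grey line the 2% limit of the list. Of the 15 dots 4 lie above the dashed line, 2 at Nr4a1, 1 at Klf4 and 1 at Klf10, and the lowest, at Npas4, has no exact site.

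The exact EGR sites were set against all 11938 peaks on assembled chromosomes. GCGTGGGCG or GCGGGGGCG was in 8 of the 15 peaks and in 16.6% of all peaks, or 22.6% of the 7167 peaks within 2 kb of a coding TSS. GCGGGGGCG was in 6 of the 15 (12.5% of all) and GCGTGGGCG in 2 (4.41% of all). A site with 1 base changed, and no exact one, was in 5 of the 15 and in 53.2% of all peaks. Counted from the side of the sequence, the windows of the 8 genes contained 12 exact sites, of which 8 (66.7%) lay in a peak. Of the 5969 such sites in the windows of all coding genes, 1987 (33.3%) lay in a peak, a number that happens to equal that of the peaks with a site, which held 2150 sites inside and outside the windows. Of the 12 sites at the 8 genes, 11 were within 2 kb of a TSS, a share that was not computed for the 5969. The 4 of the 12 outside every peak were those at Nr4a1 (1), Nr4a3 (2) and Ier5 (1) given above.

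Motifs of other factors that act at activity-induced genes were searched in the same way, on both strands. The short CRE, TGACG, was in 7 of the 15 peaks, at Npas4, Nr4a1, Klf4, Klf10 and Ier2, and in 19.6% of all peaks. The full CRE, TGACGTCA, which contains it, was in none (1.3% of all). The GC box, GGGCGG, was in 11 of the 15 and in 55.8% of all peaks. The AP-1 motif, TGANTCA, was in 2 of the 15, at Npas4 and Ier2 (6.48% of all), and TATAAA in 2, both at Npas4 (5.25% of all). The CArG box (CC, then 6 bases of A or T, then GG) and the E-box CACGTG were in 1 each (0.938% and 7.46% of all). AAAGGTCA, the site of the NR4A proteins themselves, was in none of the 15 and in 0.444% of all peaks. The GC box can overlap a GCGGGGGCG site.

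**Figure D4:**
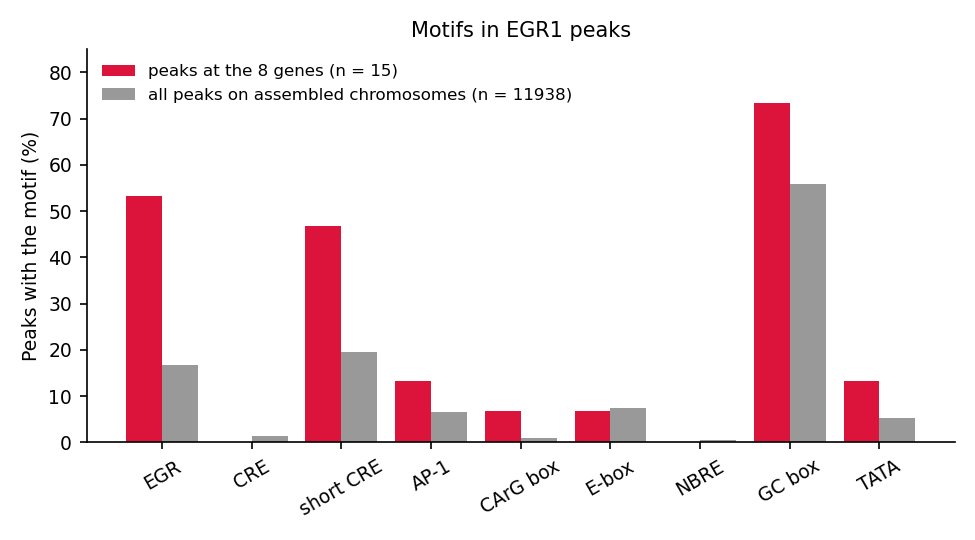
Percent of peaks with each motif (y axis, from 0), for the 15 peaks at the 8 genes (red) and all 11938 peaks on assembled chromosomes (grey); 1 of the 15 peaks is 6.67%. The red bar is the higher for the EGR site (53.3% against 16.6%), the short CRE (46.7% against 19.6%) and the GC box (73.3% against 55.8%), as also for AP-1, TATAAA and the CArG box, each in only 1 or 2 of the 15 peaks, and no red bar stands at the CRE or the NR4A site (NBRE).

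The observed/expected CpG ratio, which is 1 where CpGs are as frequent as the C and G content allows and is low in most of the mouse genome, ranged from 0.36 to 0.97 with a median of 0.72. The median was 0.60 over all peaks and 0.77 over peaks within 2 kb of a coding TSS. In 15 of 15 the ratio was above its mean in flanking windows placed 5 kb away on either side, as in 85.4% of all peaks, and the median of these flanks was 0.31, against 0.19 for all peaks. GC content had a median of 68.0% (46.7 to 76.9%), against 60.4% over all peaks and 65.9% near coding TSSs. The lowest CpG ratios, 0.36 and 0.44, were those of the distant Npas4 peaks without an EGR site, together with 0.43 in the second intronic peak of Nr4a1. The highest were 0.97 in Klf10 and 0.93 in Klf4, the latter in the intronic peak with 63.6% GC, below the median of the 15. Peaks were 115 to 264 bp wide, with a median of 250 bp.

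**Figure D5:**
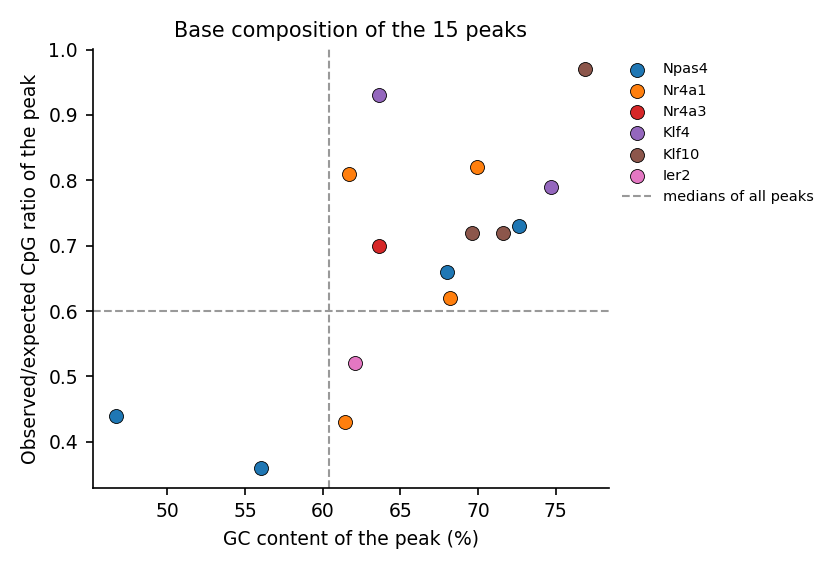
Observed/expected CpG ratio (y axis) against GC content in percent (x axis) for each of the 15 peaks, coloured by gene, with dashed lines at the medians of all peaks (0.60 and 60.4%). The 2 distant Npas4 peaks are the only points left of the GC median, and 11 of the 15 points lie above the CpG median.

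Other regulators of the early response were taken for comparison by the same rule. Of the FOS and JUN genes, 6 of 7 had a peak (13 peaks, median IDR 3.26e-07), with Fos the one without. The nearest peak to Fos lay just outside the window, 11308 bp downstream of a TSS, with an IDR of 3.41e-08 and Fos as its nearest coding gene. The exact EGR site was in 7 of the 13 peaks (53.8%), about the share seen at the 8 genes. Of the EGR and NAB genes, 6 of 6 had a peak, with 17 peaks, a median IDR of 1.25e-06 and the exact site in 7 (41.2%). Of 12 further activity-induced regulators, 9 had a peak, all but Cebpb, Crem and Nfil3, with 18 peaks, a median IDR of 5.91e-05 and the exact site in 5 (27.8%). The genes of the proteins that pair with NPAS4 and with some of the NR4A receptors, Arnt, Arnt2, Rxra, Rxrb and Rxrg, are not themselves known as early genes. Of these 4 of 5 had a peak, all but Rxrg, against 39.6% of coding genes. They are long, with a median of 62853 bp, and both Arnt2 peaks were intronic, 108519 and 109678 bp from its 5′-most TSS. The 5 peaks had a median IDR of 0.000726 and none held the exact site. These differences between lists were not tested. Peaks shared with a further coding gene numbered 8 in each of the first 3 lists and 1 in the last, against 0 at the 8 genes. The only peaks of Fosl1, Ier3 and Rxrb were among these, centred 64, 4 and 45 bp from the TSS of another coding gene.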

How the data were processed

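EGR1 ChIP-seq of frontal cortex was analysed from 1 deposited peak list. The 100-bp paired-end reads were trimmed and aligned to mm10 with Bowtie by the authors, who used SPP to find peaks in each of 2 replicates and merged those that passed an IDR of 2%. The deposited IDR of each peak is read like a q-value and has no error of its own. No counts or signal were used here, so depth is unknown and no interval of a peak's value can be given.

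Positions were read as BED intervals, since their counting is not given in the sources used here, and compared with GENCODE release M21 and GRCm38.p6. Peaks on scaffolds (76) were left out of sequence results. Distances are from the peak centre, upstream of a TSS up to 2 kb counting as promoter. A motif search on both strands used Python 3.11.15, numpy 2.4.6, pandas 2.3.3 and scipy 1.17.1, with sequence indexed by samtools 1.23.1 and plots by matplotlib 3.10.9. The scripts were tested on simulated data, where the peak number of 300 of 300 genes and the motif state of 400 of 400 sequences were recovered. The 8 genes, the comparison lists and the motifs were chosen with earlier results of these data known. The genes named are the 8, those of the comparison lists without a peak, and the neighbours of the nearest peaks or of the peak-free stretch. Those neighbours, the peak next to Fos and the peaks of Arnt2, Fosl1, Ier3 and Rxrb were named after their values were seen. With 1 merged list no test was made, and other windows, TSS sets, IDR limits and motif forms were tried as alternatives.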

Additional observations from a re-analysis of the deposited data

How the results depend on the processing

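Over 35 alternatives for 7 results, 27 values stayed within set limits and 8 did not. The limits were 1.5 times the reported count, or the 95% interval of the reported percent or median. A change of direction was not examined. With peaks in the gene body or within 50 kb of a TSS, 27 peaks in place of 15 were tied to the 8 genes. By that rule 7 genes in place of 6 had one, Ier5 being the one added. The number of genes with a peak was 6 under the 7 other alternatives. The exact EGR site was in 13 of the 15 peaks with 1 base of difference allowed and in 2 with GCGTGGGCG alone, in place of 8. The percent of coding genes with a peak, 39.6, became 34.1 within 2 kb, 36 within 5 kb and 58.7 within 50 kb of a TSS, 37.2 with the gene body left out and 28.9 with an IDR of 0.001 or less. The median IDR of 6.17e-06 became 3.46e-07 when each gene with a peak kept only its peak with the lowest IDR. That choice itself favours low values. The order-statistic interval of the median IDR was 1.55e-07 to 0.000528, which includes the median of all peaks, 0.000321. The median CpG ratio was 0.72 in both alternatives, and its interval, 0.52 to 0.81, includes the 0.6 of all peaks. These intervals cover the choice of peaks only and treat the 15 peaks as independent, although 4 of the 8 genes had at least 2. They give no spread between mice or experiments. No paired analysis was possible because the replicates were merged into 1 list, and for the same reason no replicate could be left out. Without read counts, a gene without a peak cannot be told apart from one below the limit of the list.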
